A study of Caenorhabditis elegans with 2 samples.

Results

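The 6 MCM helicase genes mcm-2 to mcm-7 and the ribonucleotide reductase genes rnr-1 and rnr-2, 8 of 19973 protein-coding genes, were examined for RNA polymerase II occupancy in early embryos of Caenorhabditis elegans. The genes were chosen by name and placed at their Ensembl WBcel235 positions, and every peak summit from 500 bp before a gene to 500 bp past it was collected. The data come from ChIP-seq with an antibody to AMA-1, the large subunit of the polymerase, in whole embryos of both sexes of the wild-type strain N2, with the age given as unknown and no allele or treatment named in the labels. There is a single group of 2 biological replicates, each with its own biosample, and 1 control shared by both. No second condition exists, so no contrast was tested. Counts for the 8 genes are set beside the same counts over all protein-coding genes.

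The MCM proteins form a ring of MCM2 to MCM7 that is loaded onto origins as an inactive double ring and, once activated, unwinds the DNA ahead of the replication fork. Ribonucleotide reductase makes the deoxyribonucleotides used at the fork, with a large catalytic subunit (RNR-1) and a small radical-carrying subunit (RNR-2). Early embryos divide quickly, and much of their replication machinery is supplied by the mother. Polymerase II continues past the cleavage and polyadenylation site of a gene before it leaves the template, and many worm genes are so closely spaced that this stretch belongs to a neighbour. AMA-1 occupancy there cannot be assigned to 1 of the genes from peak positions.

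4 lists of peaks on ce11 were used. The optimal list holds 724 peaks, which are the 724 of highest signal in the pooled list of 30000 peaks called on both replicates together. Each replicate also has its own list of 30000 peaks, long enough to include background. The authors' signal value has no stated scale, so signal serves to rank peaks within a list, and a rank is always a rank in the named list, with 1 the highest. The read depth is unknown. Whole embryos were used, so occupancy in more cells and higher occupancy per cell cannot be told apart. Most optimal peaks, 555 of 724, are 370 bp wide. Of 12 genes known for early embryonic activation 2 (nhr-2 and die-1) had an optimal summit. So did 1 of 8 genes of larval or adult tissue (unc-54). The share of all protein-coding genes was 3.95%, and counts this small do not tell the 2 kinds of marker apart.

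4 of the 8 genes had an optimal summit in the window, namely rnr-2, mcm-5, mcm-7 and rnr-1, against 3.95% of all protein-coding genes. In all 4 the highest optimal summit lay past the annotated 3' end, at a distance of 198 to 411 bp. Over all genes, 1.83% had an optimal summit there. Of the 4 genes with an optimal summit, only mcm-5 had its highest replicate 1 window summit past the 3' end. The highest replicate 1 summit lay in the body at rnr-2 (rank 886, against 985 past the end), rnr-1 (1518 against 3715) and mcm-7 (669 against 12299). In the gene body 1 of the 8 had an optimal summit (rnr-2), against 2.21% of all genes, and upstream none of the 8 had one, against 0.441%. rnr-2 was also the one gene of the 8 with summits both in the body and past the end, against 0.396% of all genes. The 8 genes are long, with a median of 3231.5 bp against 2027 bp over all genes. Among the genes between 1614 and 5117 bp, the range the 8 span, 3.81% had an optimal summit in the window and 1.85% had one past the 3' end.

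The sequence at the 4 summits past the 3' ends is shown because these sites carry the result. Each line gives the WBcel235 sequence centred on the pooled summit, 5' to 3' on the strand of the MCM or reductase gene, with capitals over the stretch that holds the pooled, replicate 1 and replicate 2 summits. The 3 summits lay in a stretch of 12 bp at rnr-2 (chrIII:4093035-4093185, minus strand), 11 bp at mcm-5 (chrIII:4287875-4288025, minus strand), 33 bp at mcm-7 (chrV:4350020-4350170, plus strand) and 7 bp at rnr-1 (chrIII:9224853-9225003, minus strand).
rnr-2: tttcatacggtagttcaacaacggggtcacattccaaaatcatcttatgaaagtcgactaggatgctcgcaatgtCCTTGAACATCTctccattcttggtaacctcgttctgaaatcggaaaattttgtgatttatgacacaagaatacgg
mcm-5: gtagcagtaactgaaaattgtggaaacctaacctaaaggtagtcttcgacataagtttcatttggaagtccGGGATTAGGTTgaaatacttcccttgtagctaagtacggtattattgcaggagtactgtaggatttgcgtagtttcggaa
mcm-7: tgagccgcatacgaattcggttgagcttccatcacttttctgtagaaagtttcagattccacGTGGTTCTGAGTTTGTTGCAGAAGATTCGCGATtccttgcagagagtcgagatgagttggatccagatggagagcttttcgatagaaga
rnr-1: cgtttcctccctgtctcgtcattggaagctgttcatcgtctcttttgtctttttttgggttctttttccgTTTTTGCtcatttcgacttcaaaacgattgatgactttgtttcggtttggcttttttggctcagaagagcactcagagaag
The GC content of these stretches was 39.74% at rnr-2, 39.74% at mcm-5, 45.03% at mcm-7 and 41.72% at rnr-1. The rnr-2 and mcm-7 stretches include coding sequence of the neighbouring gene on the other strand. The mcm-5 and rnr-1 summits lie outside any annotated protein-coding gene.

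The small reductase subunit gene rnr-2 (WBGene00004392, chromosome III, 4093308 to 4094921, minus strand, 1614 bp) had the highest pooled and replicate 2 ranks of the 8. Its highest summit, 198 bp past the 3' end at position 4093110, had rank 87 and signal 98.89 in the pooled list. At that site replicate 1 had rank 985 (signal 28.47, 209 bp past the end) and replicate 2 had rank 59 (signal 69.08, 198 bp past the end). The same summit lies in a coding exon of C03C10.2, 207 bp before the 3' end of that gene, which runs tail to tail with rnr-2 on the other strand and overlaps it by 10 bp. The second optimal summit lay 33 bp inside the 5' end, in coding exon 1, with pooled rank 141 and signal 86.46. There replicate 2 had rank 88 (signal 59.55) within 1 bp of the pooled summit, whereas replicate 1 had rank 886 (signal 29.43) in the first intron, 111 bp from the 5' end. Both optimal peaks at rnr-2 were 92 bp wide, narrower than the usual 370 bp. A further pooled summit 735 bp into the gene had rank 956, with rank 1505 in replicate 1 and rank 603 in replicate 2 for the summits nearest to it. In the pooled list 0.456% of genes had a window summit of rank 87 or better, and 4.37% reached the best replicate 1 rank of rnr-2 in that replicate.

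The large subunit gene rnr-1 (WBGene00004391, chromosome III, 9225339 to 9228798, minus strand, 3460 bp) had its optimal summit 411 bp past the 3' end, at position 9224928, with pooled rank 586 and signal 54.36. Replicate 1 had rank 3715 there (signal 18.61) and replicate 2 had rank 468 (signal 33.94). This summit lay in the window of no other protein-coding gene, and no noncoding RNA gene was within 200 bp. The next gene in that direction, npr-29, starts 9871 bp away. In the body the best pooled summit had rank 3279, 2292 bp from the 5' end. The best body ranks in the replicates were 1518 in replicate 1 and 1333 in replicate 2, and the replicate 2 summit lies within 200 bp of T23G5.7, a small nucleolar RNA gene inside rnr-1. Replicate 2 also had a summit of rank 1933 in the first intron, 205 bp from the 5' end, which lies as well 409 bp past the 3' end of T23G5.3, the next gene upstream on the same strand. No replicate 1 summit fell in the first 500 bp of rnr-1, but a summit of rank 8500 (signal 13.23) lay at that edge, 500 bp from the 5' end. These distances run from the start of the longer of the 2 rnr-1 transcripts. The shorter one begins at 548 bp, so the summit at 500 bp lies before its start.

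Among the helicase subunit genes, mcm-5 (WBGene00003157, chromosome III, 4288264 to 4291266, minus strand, 3003 bp) had pooled rank 479 and signal 57.22 at a summit 314 bp past its 3' end, at position 4287950. MCM5 forms, with MCM2, the interface at which the ring opens in budding yeast. Replicate 1 had rank 1906 at this site (signal 23.19) and replicate 2 had rank 625 (signal 30.97). R10E4.3 follows mcm-5 on the same strand after a gap of 784 bp, and the summit is 471 bp upstream of it, so the window of either gene holds it. The body of mcm-5 had no summit in the upper 5000 of any list, and its best pooled rank was 8984, in an intron 199 bp from the 5' end. That summit is also 476 bp past the 3' end of nth-1, the next gene upstream on the same strand.

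mcm-7 (WBGene00003159, chromosome V, 4347166 to 4349768, plus strand, 2603 bp), whose product is part of the MCM4, MCM6 and MCM7 subcomplex that unwinds DNA on its own when purified from human cells, had pooled rank 546 and signal 55.34 at a summit 327 bp past its 3' end, at position 4350095. At this site the replicates were far apart, with rank 12299 in replicate 1 (signal 10.91) and rank 188 in replicate 2 (signal 44.59). The summit lies in a coding exon of F32D1.3, 344 bp before the 3' end of that gene of 11819 bp, which overlaps the tail of mcm-7 by 18 bp. mcm-7 also had high body summits below the optimal list. The one 376 bp before its 3' end had pooled rank 1070, with rank 669 in replicate 1 and rank 5230 in replicate 2. These summits also lay in the window of F32D1.3, at 359, 374 and 302 bp past the 3' end of that gene in the same order. The mcm-7 body summit 39 bp from the 5' end had pooled rank 1108, with rank 3339 in replicate 1 and rank 978 in replicate 2. Replicate 1 was thus higher toward the end of the gene body, and replicate 2 was higher past the end and near the start.

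**Figure D1:**
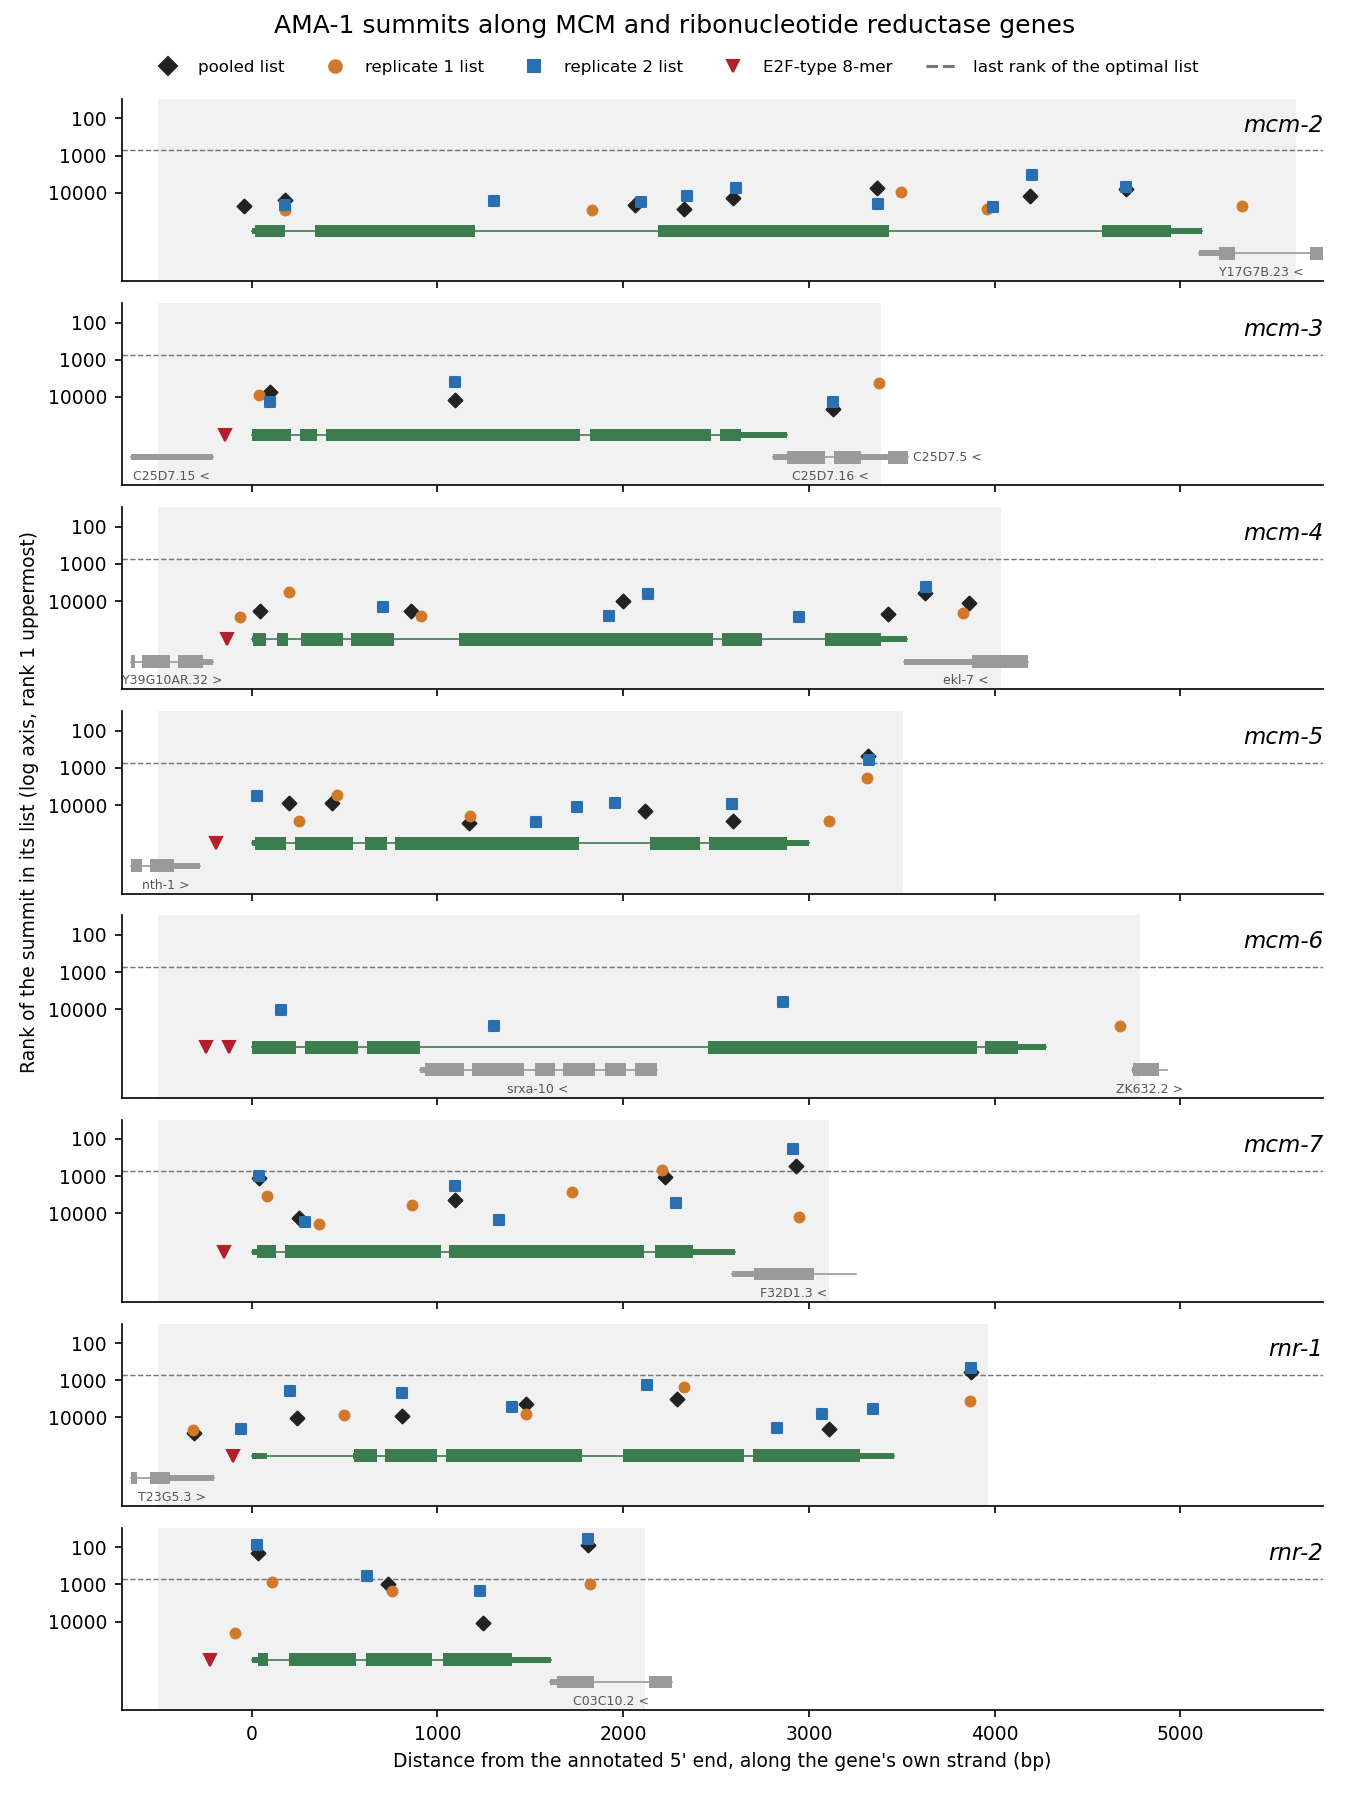
Summits along the 8 genes by distance in bp from the annotated 5' end (horizontal axis) and by rank in the pooled, replicate 1 and replicate 2 lists (vertical log axis, rank 1 uppermost). Grey shading is the window of 500 bp on either side, green boxes are the exons of the gene with coding parts thicker, grey boxes are neighbouring genes with arrows for their strand, red triangles are 8-mer matches, and the dashed line is rank 724, the last rank of the optimal list. Pooled summits above the line are those past the ends of mcm-5, mcm-7, rnr-1 and rnr-2 and the one at the start of rnr-2.

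The replicates differed in how high they placed these sites. In the 724 highest peaks of replicate 2 itself, the same 4 genes had a summit in the window, against 3.91% of all genes. In the 724 highest of replicate 1, mcm-7 alone did, through its body summit of rank 669, against 3.64% of all genes. That summit is shared with the window of F32D1.3. None of the past-end sites was among the 724 highest of replicate 1, where their ranks were 985 at rnr-2, 1906 at mcm-5, 3715 at rnr-1 and 12299 at mcm-7. In replicate 2 they were 59 at rnr-2, 188 at mcm-7, 468 at rnr-1 and 625 at mcm-5. With a limit of the upper 5000 peaks of both replicates, 5 of the 8 genes had a window summit (mcm-3, mcm-5, mcm-7, rnr-1 and rnr-2), against 11.2% of all genes. For summits past the 3' end the same limit gave 3 of the 8 (mcm-5, rnr-1 and rnr-2), against 3.60%. mcm-3 entered the first count through summits at different places in the replicates.

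The other helicase genes, mcm-2, mcm-3, mcm-4 and mcm-6, had no optimal summit and none in the upper 5000 pooled peaks, where 17.3% of all genes had one and 4 of the 8 did. mcm-4 (WBGene00003156, chromosome I, 2318291 to 2321817, minus strand, 3527 bp) encodes the subunit whose tail is a main target of the activating kinase in budding yeast. It had a best pooled rank of 6131 (signal 24.27), 98 bp past its 3' end and inside the 3' UTR of ekl-7, the tail-to-tail neighbour. Near that site replicate 2 had rank 4253 at 102 bp, while the nearest replicate 1 summit was at 305 bp with rank 21246. The best replicate 1 summit of mcm-4 had rank 5628 in an intron 202 bp from the 5' end, also 410 bp past the end of Y39G10AR.32. mcm-4 thus had its best rank at opposite ends in the replicates.

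mcm-3 (WBGene00003155, chromosome V, 15056719 to 15059599, minus strand, 2881 bp) encodes the subunit that first meets the loading complex in budding yeast. It had a best pooled rank of 7244 (signal 22.60), 98 bp from its 5' end in a coding exon, and that summit is also 307 bp upstream of C25D7.15 on the other strand. Its best replicate 1 summit had rank 4118, 498 bp past the 3' end and just inside the window, where it lies within both C25D7.5 and C25D7.16. Its best replicate 2 summit had rank 3909, in a coding exon 1096 bp from the 5' end. mcm-2 (WBGene00003154, chromosome II, 12001509 to 12006625, minus strand, 5117 bp), the longest of the 8, encodes a subunit that also binds histones in yeast and human cells. It had 8 pooled summits. The best of them had rank 7557 (signal 22.21), 3368 bp from the 5' end. Replicate 1 had a best rank of 9759 at 3494 bp, in a peak that overlaps the best pooled peak. Replicate 2 had its best rank of 3406 elsewhere in the body, at 4203 bp. Near the best pooled summit replicate 2 had rank 19600, at 3370 bp.

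mcm-6 (WBGene00003158, chromosome III, 9794367 to 9798644, plus strand, 4278 bp) encodes the subunit that binds the loading factor Cdt1 in budding yeast. It had no summit in the pooled list, which reached 36.8% of all genes and the other 7 of these 8. Replicate 1 had 1 summit in its window, of rank 27875, 398 bp past the 3' end. Replicate 2 had 3, with a best rank of 6433 at 2861 bp from the 5' end. srxa-10 lies within mcm-6 on the other strand, and the replicate 2 summit of rank 28784 fell in it. Just outside the window, 563 bp past the 3' end of mcm-6, the pooled list had a summit of rank 1388, with rank 301 in replicate 2 at 557 bp. That summit lies 100 bp inside the 5' end of ZK632.2, which begins 462 bp past the end of mcm-6 on the same strand, and the sole replicate 1 summit within 1000 bp of mcm-6 is the one at 398 bp. The window edge therefore decides whether mcm-6 has a pooled summit at all.

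At the 5' side, 7 of the 8 genes had a pooled summit within the first 500 bp of the gene, against 16.6% of all genes. Among 46 other genes of DNA replication, taken up below, 25 had one. The count was 6 of 8 in replicate 1, against 15 of the 46 and 15.4% of all genes. In replicate 2 it was 7 of 8, against 27 of the 46 and 17.1% of all genes. The missing genes were not the same: mcm-6 in the pooled list, mcm-6 and rnr-1 in replicate 1, and mcm-4 in replicate 2. rnr-1 was missed at the edge, with a replicate 1 summit of rank 8500 at 500 bp. Most summits in the first 500 bp ranked low. The pooled ranks were 141 at rnr-2, 1108 at mcm-7, 7244 at mcm-3, 8984 at mcm-5, 10337 at rnr-1, 15426 at mcm-2 and 18780 at mcm-4. Several of these were shared with a neighbour's window. The mcm-3 summit was 307 bp upstream of C25D7.15. Those of mcm-4, mcm-5 and rnr-1 were 252 bp past Y39G10AR.32, 476 bp past nth-1 and 447 bp past T23G5.3. Those of rnr-2, mcm-7 and mcm-2 were in no other protein-coding window, and mcm-5 also had an unshared pooled summit of rank 9022 at 431 bp.

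A better pooled rank past the 3' end than in the first 500 bp was found in 5 of the 7 genes with a summit at either place (mcm-4, mcm-5, mcm-7, rnr-1 and rnr-2). Over all genes with a summit at either place the share was 62.4%, close to it. In replicate 1 it was 5 of 8 (mcm-2, mcm-3, mcm-5, mcm-6 and rnr-1), against 63.0%, and in replicate 2 it was 6 of 8 (mcm-3, mcm-4, mcm-5, mcm-7, rnr-1 and rnr-2), against 62.2%. The higher rank at the 3' side was thus usual among genes in these lists. Of the 4 genes with an optimal summit, all had a better replicate 2 rank past the end than in the first 500 bp. In replicate 1 mcm-5 and rnr-1 did, but the body of rnr-1 beyond its first 500 bp ranked higher still (1518).

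**Figure D2:**
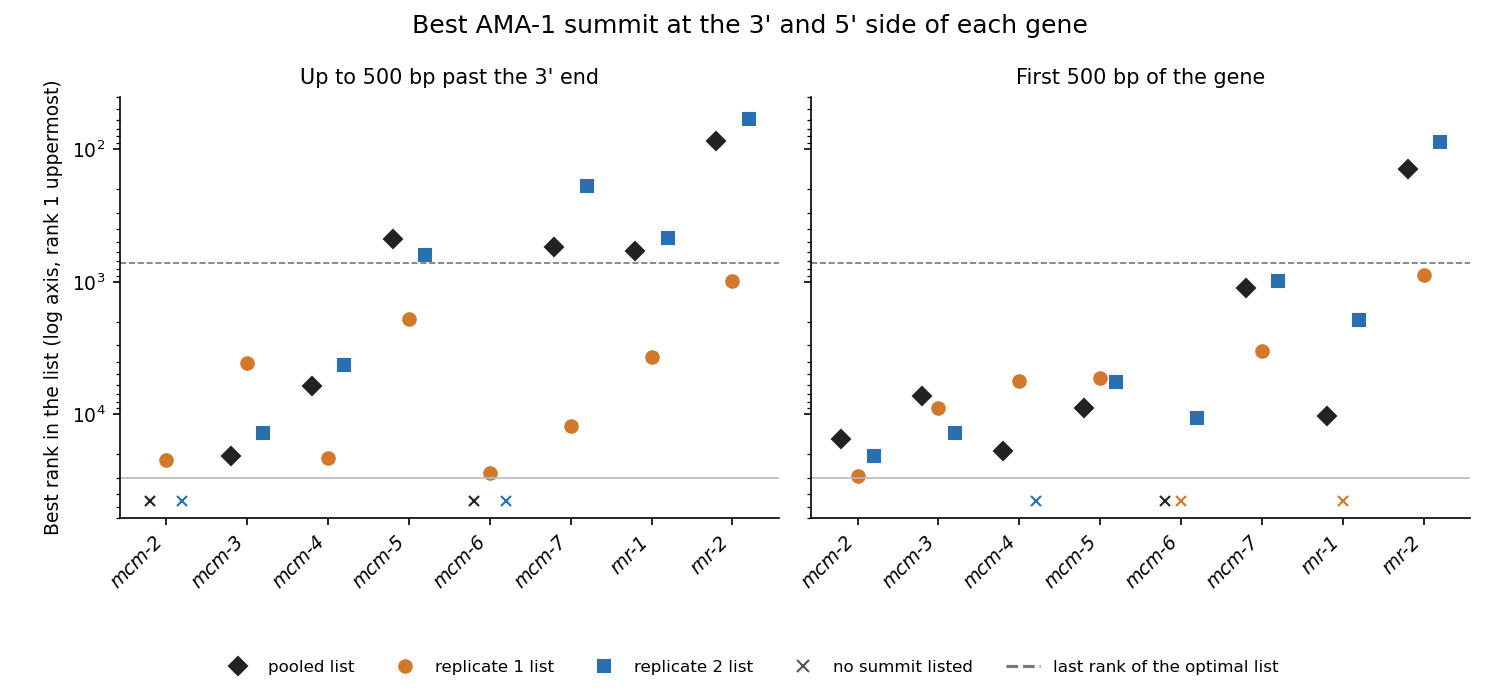
Best rank of each gene up to 500 bp past its 3' end (left) and in its first 500 bp (right) in the pooled, replicate 1 and replicate 2 lists, on a log axis with rank 1 uppermost. Crosses mark lists with no summit there, the dashed line is rank 724, and the grey line is the end of the lists at 30000. Past the end, pooled and replicate 2 points of mcm-5, mcm-7, rnr-1 and rnr-2 lie above the dashed line and no replicate 1 point does.

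The distances of 198, 314, 327 and 411 bp past the 3' end fall within the spread of all 365 genes with an optimal summit there, whose quartiles were 200, 297 and 375 bp. rnr-2 lay just below the lower quartile and rnr-1 above the upper one. The 3' ends of 5 of the 8 genes overlap the tail of a gene on the other strand, against 12 of 46 other replication genes and 16.1% of all genes. The overlaps were 10 bp for rnr-2 with C03C10.2, 18 bp for mcm-7 with F32D1.3, 16 bp for mcm-2 with Y17G7B.23, 73 bp for mcm-3 with C25D7.16 and 15 bp for mcm-4 with ekl-7. Of those 5 genes, 2 (mcm-7 and rnr-2) had an optimal summit past the end, against 2.26% of all genes with such an overlap. Of the other 3, mcm-5 and rnr-1 had one, against 1.74% of all genes without an overlap. Past-end summits thus occurred in the 8 genes with and without a tail-to-tail neighbour.

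**Figure D3:**
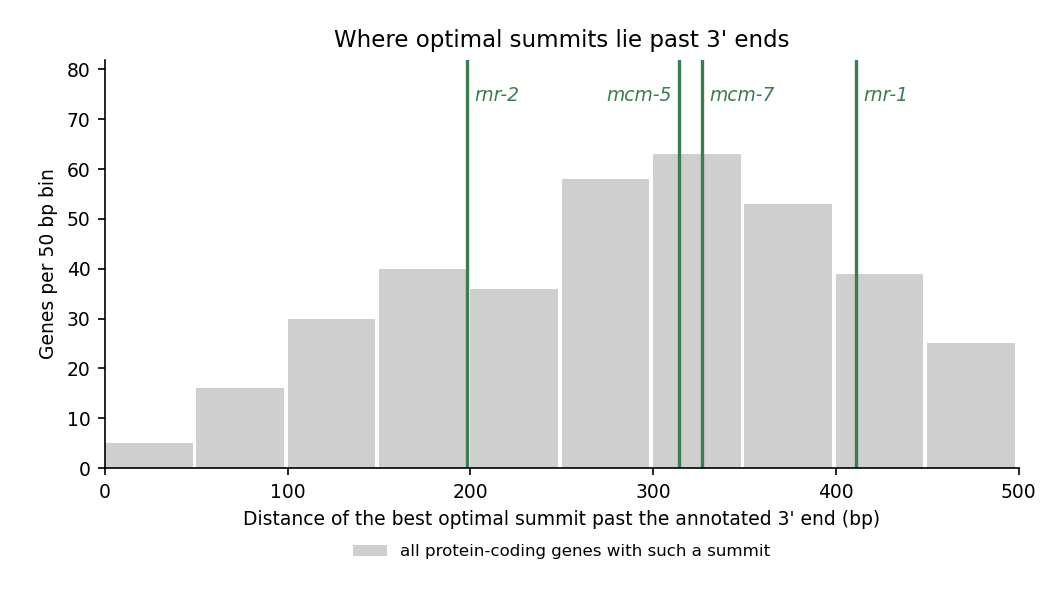
Distance in bp from the annotated 3' end to the best optimal summit past it, in bins of 50 bp, for the 365 protein-coding genes that have one (grey bars). Green lines mark rnr-2 at 198 bp, mcm-5 at 314 bp, mcm-7 at 327 bp and rnr-1 at 411 bp, all inside the range of the other genes.

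Sequence upstream of the 5' ends was searched for 4 strings of 8 letters of the kind that E2F proteins, regulators of replication genes in many animals, are known to bind. The strings were TTTCCCGC, TTTCGCGC, TTTGCCGC and TTTGGCGC, on both strands, from 250 bp before to 50 bp after the annotated 5' end. 7 of the 8 genes held at least 1, all but mcm-2, and no matches overlapped. The share was 17 of 46 other genes of DNA replication and 936 of 19973 protein-coding genes (4.69%). Over all genes it was 1.57%, 1.14%, 1.22% and 0.941% for the strings in the order given. The nearest match began 98 bp upstream at rnr-1, 120 bp at mcm-6 (with another at 247 bp), 131 bp at mcm-4, 144 bp at mcm-3, 148 bp at mcm-7, 194 bp at mcm-5 and 224 bp at rnr-2. The genes differ in the string itself: rnr-2 has TTTCCCGC, mcm-6 has it and TTTCGCGC, mcm-3, mcm-4 and mcm-7 have TTTCGCGC, mcm-5 has TTTGGCGC and rnr-1 has TTTGCCGC.

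Upstream sequences are printed for the genes with an optimal summit, and for mcm-6, which has 2 matches and no pooled summit. Each runs 5' to 3' on the gene's strand up to the base before its annotated 5' end in WBcel235, with the match in capitals. Matches to the other strand read as the reverse complement. The positions are rnr-2 chrIII:4094922-4095171, minus strand; rnr-1 chrIII:9228799-9229001, minus strand, shortened at the end of T23G5.3; mcm-5 chrIII:4291267-4291516, minus strand; mcm-7 chrV:4346916-4347165, plus strand; and mcm-6 chrIII:9794117-9794366, plus strand.
rnr-2: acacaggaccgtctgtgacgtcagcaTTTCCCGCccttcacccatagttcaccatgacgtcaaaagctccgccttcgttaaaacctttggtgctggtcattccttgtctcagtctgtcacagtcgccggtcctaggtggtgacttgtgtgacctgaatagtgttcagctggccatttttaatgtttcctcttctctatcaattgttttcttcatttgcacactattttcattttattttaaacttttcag
rnr-1: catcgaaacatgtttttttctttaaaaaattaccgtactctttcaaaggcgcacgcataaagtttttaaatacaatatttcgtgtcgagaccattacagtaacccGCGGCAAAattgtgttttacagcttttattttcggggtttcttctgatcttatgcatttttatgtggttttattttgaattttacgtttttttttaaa
mcm-5: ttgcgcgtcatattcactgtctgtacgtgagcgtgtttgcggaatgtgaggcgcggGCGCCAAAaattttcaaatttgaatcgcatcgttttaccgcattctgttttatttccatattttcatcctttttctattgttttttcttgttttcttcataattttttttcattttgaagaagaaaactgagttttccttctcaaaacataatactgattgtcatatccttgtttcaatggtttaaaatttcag
mcm-7: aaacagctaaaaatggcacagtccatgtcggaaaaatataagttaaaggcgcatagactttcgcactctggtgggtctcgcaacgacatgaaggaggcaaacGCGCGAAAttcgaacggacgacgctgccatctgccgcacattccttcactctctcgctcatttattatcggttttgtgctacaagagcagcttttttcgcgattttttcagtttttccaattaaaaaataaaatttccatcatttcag
mcm-6: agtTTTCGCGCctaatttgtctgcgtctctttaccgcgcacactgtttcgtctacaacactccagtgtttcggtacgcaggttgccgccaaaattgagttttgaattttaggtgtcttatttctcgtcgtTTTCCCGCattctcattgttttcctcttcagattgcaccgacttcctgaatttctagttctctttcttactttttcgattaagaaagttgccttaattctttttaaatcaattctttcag
The sequences of rnr-2, mcm-5, mcm-7 and mcm-6 end in ttttcag or tttcag, the letters of a worm splice acceptor. 6 of the 8 genes, all but mcm-4 and rnr-1, had these last 6 letters just before the 5' end, against 12.3% of all genes. Annotated 5' ends of this kind are often sites where a leader is trans-spliced on and not transcription starts.

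A match did not go with an optimal summit one to one in the 8 genes. mcm-3, mcm-4 and mcm-6 have a match and no optimal summit. Over all genes, 54 of the 936 with a match (5.77%) had an optimal summit in the window, against 735 of the 19037 without (3.86%). None of the 8 genes had an optimal or upper 5000 summit upstream of its outermost annotated 5' end in any list. The best rank upstream of such an end was 20419, at rnr-2 in replicate 1. The shorter of the 2 rnr-1 transcripts begins at 548 bp, and the replicate 2 summit of rank 1933 at 205 bp lies before that start.

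46 other genes of DNA replication could be matched by symbol out of 48 listed, and 4 of them (8.70%) had an optimal summit. tim-1, the Timeless homologue of the fork protection complex, had rank 19 at a summit 361 bp upstream. Its best ranks were 17 in replicate 1 and 27 in replicate 2, also upstream. The optimal summit of tim-1 lies near noncoding RNA genes, sls-2.8 among them, and in the window of Y75B8A.23. psf-3 and sld-5 encode subunits of GINS, which joins the MCM ring in the active helicase. Both had their summit past the 3' end, psf-3 at 104 bp with pooled rank 207 and sld-5 at 86 bp with pooled rank 518. The best psf-3 ranks were 5492 in replicate 1 and 81 in replicate 2, and the best replicate 1 rank of sld-5 was 358. Those summits were past the 3' end too. For the other replication genes, replicate summits were not matched in position to the pooled ones. The best replicate 2 summit of sld-5 was in its body, with rank 1271. The psf-3 summit is shared with the window of icd-2. rfc-3, a clamp loader subunit, had pooled rank 624 at a summit 70 bp inside the gene, shared with C39E9.12, and its best ranks were 677 in replicate 1 and 1337 in replicate 2. Past the 3' end alone, 2 of the 46 had an optimal summit (4.35%), and 1 each had one upstream and in the body.

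The 5 next best of the 46 in the pooled list were rpa-2 (single-strand binding, rank 962), cdt-1 (MCM loading, rank 979), cdc-7 (the kinase that activates the ring, rank 980), ndk-1 (nucleoside diphosphate kinase, rank 1307) and cdc-6 (MCM loading, rank 1938). The summits of cdt-1 and cdc-6 were past the 3' end, and those of rpa-2, cdc-7 and ndk-1 were in the body. cdc-7 ranked higher in each replicate (295 in replicate 1, 500 in replicate 2) than in the pooled list. In the upper 5000 of both replicates 5 of the 8 MCM and reductase genes had a summit, against 8 of the 46 (17.4%) and 11.2% of all genes. In the whole pooled list 7 of the 8 had one, against 44 of the 46 (95.7%) and 36.8% of all genes.

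**Figure D4:**
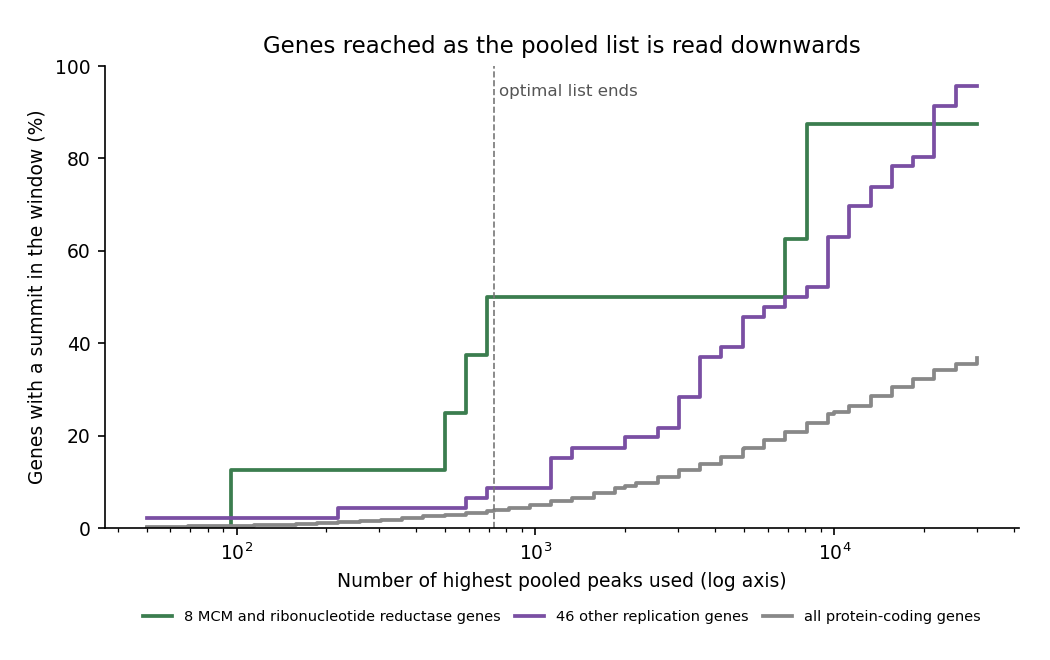
Share of genes with a window summit (vertical axis, %) when the given number of highest pooled peaks is used (horizontal log axis), for the 8 MCM and reductase genes, 46 other replication genes and all protein-coding genes. The 8 genes reach 4 of 8 at the end of the optimal list and stay there to 5000 peaks, where the other replication genes stand at 45.7% and all genes at 17.3%.

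Over these windows 97.6% (mcm-2) to 100% of all 31-base stretches occur once in the genome, so shared sequence with other loci is small for the 8 genes.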

How the data were processed

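AMA-1 ChIP-seq was measured in 2 biological replicates of 1 group. Per the labels and the deposited text notes, the authors called peaks on ce11 for each replicate and for both pooled, each with 1 control, and derived an optimal list thresholded by the irreproducible discovery rate. The lists carry no read counts, so the depth is unknown. Aligner, caller and threshold were not given in the sources used here. The deposited signal value of each peak, whose scale is unstated, ordered the peaks of its own list and was not compared between lists. The ce10 lists were not used.

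Summits were counted from 1 and placed on protein-coding genes of Ensembl release 115 (WBcel235, the assembly of ce11), and 0 peaks ran past the end of their chromosome. A summit in several windows was credited to each gene. The 5' end of a gene is the outermost one annotated, also for the counts and the sequence search at 5' ends. Placement was tested on simulated summits. Sequence was read from the RefSeq WBcel235 genome. Python 3.11.15, pandas 2.3.3, numpy 2.4.6 and matplotlib 3.10.9 were used. With 1 group and no contrast, no test was run, and shares are descriptions.

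The 8 genes and the gene lists were chosen with earlier results of these data known. Named genes are the 8, genes sharing their optimal or best pooled summits, replication genes with an optimal summit and the next 5 by pooled rank. Other neighbours and the marker genes were named after their values had been seen. The alternatives were shorter and longer lists, each replicate's own list, other windows, overlap of the peak interval, summits shared with other genes or near noncoding RNA genes left out, and other limits in both replicates.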

Additional observations from a re-analysis of the deposited data

How the results depend on the processing

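The 4 of 8 MCM and reductase genes with an optimal summit stayed 4 with summits near noncoding RNA genes left out. The count was also 4 with the upper 2000 or 5000 pooled peaks, a window of 1000 bp, or overlap of the peak interval. Those settings can add genes but cannot remove any, so they do not test whether the count is stable. The share of all genes rose from 3.95% in the optimal list to 9.17% with the upper 2000 and 17.3% with the upper 5000 pooled peaks. The count among the 8 was 1 (rnr-2) with the upper part of the optimal list or a window of 250 bp. It was 2 (rnr-1 and rnr-2) without summits shared with another protein-coding window. It was 1 (rnr-2) with summits past the 3' end left out, an alternative chosen after seeing the data. With 1 replicate left out, and the same number of peaks taken from the other, it ranged from 1 to 4: mcm-7 alone without replicate 2, and all 4 genes without replicate 1. For the 46 other replication genes, 4 in the optimal list became 2 with its upper part, 9 with the upper 2000 and 21 with the upper 5000 pooled peaks, 1 without shared summits and 2 without summits past the 3' end. With summits near noncoding RNA genes left out it was 3, without tim-1. It was 4 with either replicate left out, with cdc-7 and tim-1 in both counts. The 5 genes in the upper 5000 of both replicates became 3 with a window of 250 bp. The median best pooled rank of the 8 genes, with mcm-6 placed beyond the list, was 3358.5. It became 6687.5 with a window of 250 bp and 987 with a window of 1000 bp or with peak interval overlap, which bring in a summit of mcm-6, and 2015.5 to 3012 with 1 replicate left out. No paired analysis was possible because there is 1 group. Peak lists without read counts, 2 replicates and fixed peak widths limit how finely ranks and positions can be compared.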
